A study of Mus musculus with 12 samples.

Results

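The complement components and regulators examined here are 9 genes, *C3*, *C4b*, *C2*, *C1ra*, *C1s1*, *Cfb*, *Cfi*, *Serping1* and *Cd55*, found by their symbols among the 18903 genes of the count table. They were chosen as complement genes other than the *C1q* chains, which microglia express, by a rule that names symbols and uses no measured value. Even so, the members and the lists below were chosen with earlier results of these data known. The data are RNA-seq counts of primary astrocytes from mouse brain, taken at postnatal day 1 (P1), P6 or P8 from WT or *Rack7*-cKO mice, with 2 libraries for each of the 6 groups. *Rack7*, also named *Zmynd8*, encodes a chromatin reader protein, and the cKO mice carry floxed alleles of it with hGFAP-Cre, a transgene in which a human *GFAP* promoter drives Cre in neural stem cells of the forebrain. The WT mice carry the same Cre with intact *Rack7* alleles, so the comparison is of the floxed allele and not of the transgene. According to the methods, the meninges were removed and the flasks were shaken to take off microglia and oligodendrocytes. The age is that of the pups at dissection, before days in culture. The number of pups behind a library was not found in the sources at hand, so p-values measure the spread between these libraries only.

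Complement is a cascade of serum and tissue proteins that tags surfaces for uptake and can lyse membranes. In the classical pathway C1q binds a target and activates the proteases C1r and C1s, C1s cleaves C4 and C2, and their fragments form the enzyme that cleaves C3, the protein on which all pathways converge. Factor B forms the C3-cleaving enzyme of the alternative pathway, while C1 inhibitor blocks C1r and C1s, CD55 takes the C3-cleaving enzymes apart and factor I degrades C3b and C4b. In brain, microglia are the main source of C1q and astrocytes are a source of C3, and complement proteins mark synapses for removal. Fibroblasts also secrete C1r, C1s and C1 inhibitor.

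Counts per library added up to between 54413504 and 89183250. Levels are given as CPM, counts scaled to a common library total, after TMM normalization over all libraries, and per kilobase of exon only where genes are compared with each other. All 9 genes passed the filter on low counts and were among the 17938 genes tested with edgeR's quasi-likelihood test. A gene was called at a Benjamini-Hochberg adjusted p below 0.05 over all of these genes together with a fold change of at least 1.5. *Zmynd8* itself ran against its label, since its counts over the whole gene were higher in the 6 libraries labelled cKO, at 160.4 to 242 CPM, than in the 6 labelled WT, at 99.98 to 136 CPM. The floxed segment holds only some of its exons, so the total count does not check the deletion, and directions below are those of the libraries labelled cKO and WT. Measurements of the RACK7 protein that the study made in such cultures were not used here.

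Astrocyte markers (*Gfap*, *Aqp4*, *Slc1a3* and others, 9 of 9 measured) were present in every library, with a summed level of 687 to 2253 CPM. At P8 their sum was 2.53-fold lower in the libraries labelled cKO, and 5 of the 9 were called lower, while at P1 and P6 the sums differed by 1.05-fold and 1.09-fold. *Aldh1l1* went the other way at P8, with means of 51.8 CPM in WT and 72.7 CPM in cKO. By mean, the largest term of the P8 WT sum was *Gja1*. Its 2 WT libraries differed widely, at 360 and 712 CPM, against a mean of 117 CPM in cKO. Fibroblast markers (8 of 9 measured, *Col1a1*, *Col1a2*, *Col3a1*, *Dcn*, *Lum*, *Ogn*, *Col6a3* and *Mfap5*) were abundant and moved with genotype at each age. Their sum at P1 was 490 to 499 CPM in WT and 2527 to 2556 CPM in cKO libraries, 5.14-fold higher in cKO, with 7 of 8 called higher. It was 2.58-fold lower in cKO at P6, at 2552 to 2726 CPM against 6776 to 6838 CPM, with 6 of 8 called lower and *Lum* at 0 in both cKO libraries. At P8 it was 3.18-fold lower, at 8165 to 8415 CPM against 26278 to 26380 CPM, with 8 of 8 called lower. The 11 microglia markers added up to 1868 to 3443 CPM. Their sum was 1.27-fold lower in cKO at P1, with 2 called lower, and 1.07-fold lower at P6, with 1 called higher and 1 lower. At P8 it was 1.43-fold higher in cKO, with 7 called higher and 1 lower. The latter was *Tmem119*, with means of 59.8 CPM in WT and 22.9 CPM in cKO. The sum of endothelial markers (4 of 7 measured) was low and turned in the same way as the fibroblast sum. It was 1.98-fold higher in cKO at P1, 2.01-fold lower at P6 and 4.03-fold lower at P8. Of the 4, 2 were called higher at P1, 3 lower at P6, and 2 lower and 1 higher at P8. At P8 the WT sum was mostly *Cdh5*, at a mean of 133 CPM against 9.84 CPM in cKO. *Flt1* went the other way, with means of 36.9 CPM in WT and 53.2 CPM in cKO at P6 and 5.14 and 19.4 CPM at P8. The sums for mural cells, oligodendrocyte lineage, neurons and ependymal cells were 1.19-, 1.20-, 1.47- and 1.53-fold higher in cKO at P8, and those for mural cells and neurons 1.495- and 1.76-fold higher at P1. In such bulk libraries fewer cells of a type and less RNA per cell cannot be told apart, and the part of these other cells in the complement results was not tested.

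Calls in cKO were of higher levels at P1 and of lower levels at P6 and P8, and *C1s1* was the 1 gene called at both P1 and P8, in opposite directions. At P1, 2 of the 9 genes were called higher in cKO (*C4b* and *C1s1*), against 4.01% of all genes tested, and 0 were called lower, against 0.892% (1 was lower at an unadjusted p below 0.05 and 0 by DESeq2). At P6, 3 of 9 were called lower (*C3*, *Serping1* and *Cd55*), against 6.38% of all genes, and 0 higher, against 7.16% (1 at an unadjusted p below 0.05, 0 by DESeq2). At P8, 4 of 9 were called lower (*C1ra*, *C1s1*, *Cfb* and *Serping1*), against 8.37% of all genes, and 0 higher, against 11.2% (1 at an unadjusted p below 0.05, 0 by DESeq2). Over the 9 genes the log2 fold change, cKO minus WT, had a median of 0.41 at P1, -0.59 at P6 and -1.52 at P8, against 0.00, 0.00 and 0.012 over all genes tested. These 3 comparisons have no library in common, whereas the interactions and age steps given later reuse the same libraries.

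**Figure D1:**
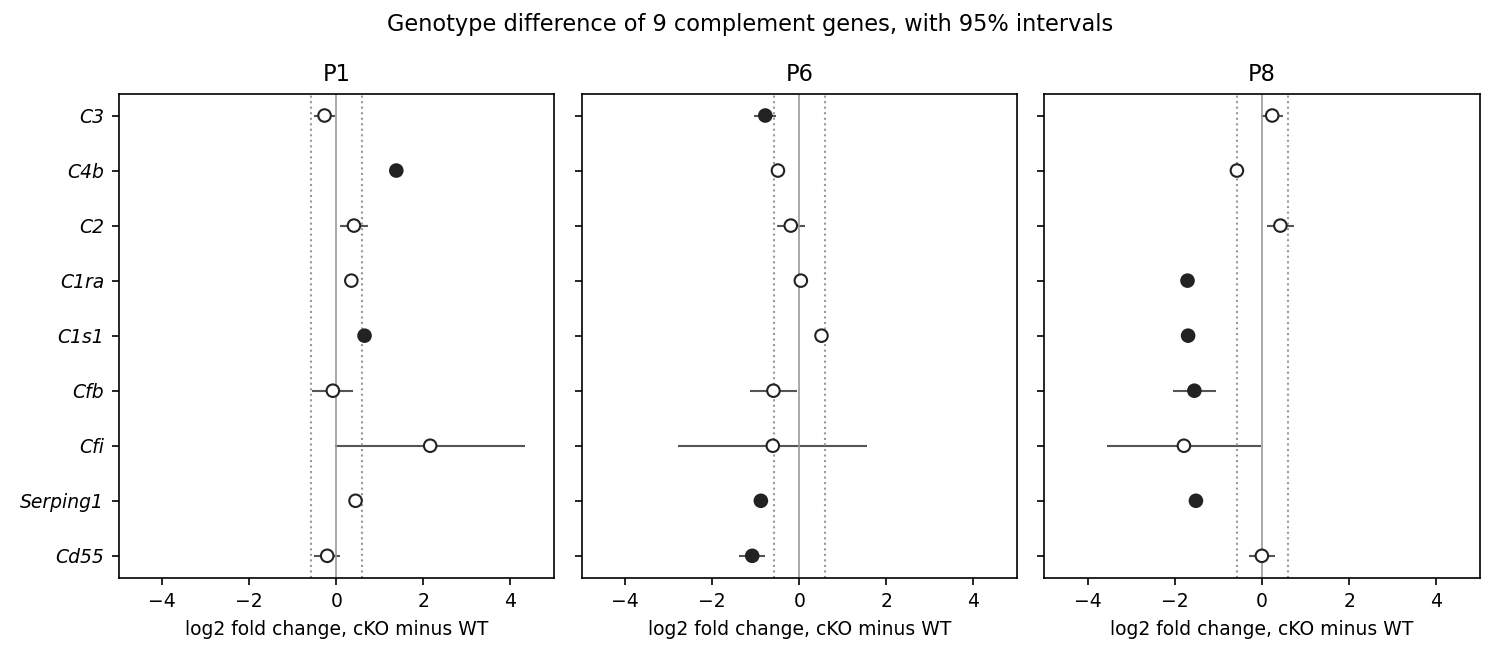
Log2 fold change (cKO minus WT, x axis) of the 9 complement genes at P1, P6 and P8, as fitted by edgeR on 2 libraries per group. Bars are 95% intervals, filled points were called, open points were not, and dotted lines mark a 1.5-fold change. Called points lie to the right for *C4b* and *C1s1* at P1 and far to the left for *C1ra*, *C1s1*, *Cfb* and *Serping1* at P8, and *Cfi*, not called, lies furthest out at both ages (2.16 and -1.80) with the widest intervals.

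The clearest group was that of the C1 proteases and their inhibitor. *C1ra* (chr6:124512405-124523443, plus strand, GRCm38) encodes the protease C1r, and *C1s1* (chr6:124530345-124542359, minus strand) its substrate C1s, with 6901 bases between these neighbours. *C1ra* measured 53.2 and 58.5 CPM in the WT and 69.6 and 72.3 CPM in the cKO libraries at P1. At P6 it measured 24.1 and 24.8 CPM in WT and 25.2 and 25.0 CPM in cKO, and at P8 125 and 122 CPM in WT against 37.0 and 38.2 CPM in cKO. The groups thus lay apart at each age, barely so at P6, and changed places between P1 and P8. In log2 terms, *C1ra* in cKO against WT stood at 0.34 at P1 (SE 0.062, edgeR adjusted p = 0.00799, a 1.27-fold difference below the fold cut-off), 0.038 at P6 (adjusted p = 0.726, 95% interval -0.10 to 0.18) and -1.71 at P8 (SE 0.063, adjusted p = 8.22e-08), 3.28-fold lower in cKO.

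*C1s1* measured 32.2 and 30.9 CPM in WT and 49.8 and 49.0 CPM in cKO at P1, and 30.2 and 28.9 CPM against 44.7 and 39.5 CPM at P6. At P8 the WT libraries held 135 and 136 CPM and both cKO libraries 41.8 CPM. Its cKO level thus stayed within 39.5 to 49.8 CPM at all 3 ages, while the WT level was low at P1 and P6 and high at P8. As a log2 fold change, *C1s1* stood at 0.65 at P1 (SE 0.068, adjusted p = 3.81e-04), 0.51 at P6 (adjusted p = 5.35e-04, 1.43-fold) and -1.70 at P8 (SE 0.070, adjusted p = 1.56e-07, 3.25-fold lower). Without P6 cKO replicate 2 the P6 difference was 0.60 and passed the fold cut-off. *C1ra* and *C1s1* have close copies, *C1rb* and *C1s2*, that could share reads with them. With the counts of the copies added, the P8 differences were called in the same direction. Part of the *C1s1* exons, 576 of 3129 bases, also belongs to *Gm16567*, which this addition does not cover.

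*Serping1* (chr2:84765387-84775444, minus strand) encodes C1 inhibitor. It measured 52.4 and 53.8 CPM in WT and 69.8 and 74.4 CPM in cKO at P1. At P6 the WT libraries held 30.1 and 30.7 CPM and the cKO libraries 15.8 and 17.2 CPM, and at P8 163 and 165 CPM against 58.7 and 55.7 CPM. The cKO libraries were above the WT libraries at P1 and below them at P6 and P8, with no overlap. For *Serping1* the log2 fold change came to 0.44 at P1 (SE 0.063, adjusted p = 0.00231, 1.36-fold), -0.88 at P6 (SE 0.064, adjusted p = 1.12e-05) and -1.52 at P8 (SE 0.064, adjusted p = 1.78e-07, 2.87-fold lower). At P6, then, the inhibitor was lower in cKO where neither protease gene was, and per kilobase *Serping1* stood at 0.742 ± 0.016 (SD, n = 2) of *C1ra* plus *C1s1* in WT and at 0.326 ± 0.039 in cKO. At P1 this ratio was 0.793 ± 0.010 and 0.783 ± 0.026, and at P8 0.832 ± 0.0081 and 0.947 ± 0.044. The ratios overlapped between genotypes at P1 only, and exact permutation of 2 libraries against 2 cannot give a two-sided p under 0.333. Each of these genes differed in the direction of the fibroblast marker sum at P1 and P8, whereas at P6 only *Serping1* did so and *C1s1* lay the other way. Between P1 and P6 in WT, the fibroblast sum was higher at P6 while *C1ra* and *Serping1* fell, as given below.

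Promoter windows of 300 bases (250 before the RefSeq start site and 50 after it, GRCm38.p6) were at hand for 4 of the genes. Those of *C1ra* and *C1s1* are shown because these neighbours were both lower in cKO than in WT at P8. Windows for *C4b*, *C2*, *Cfb*, *Cfi* and *Serping1* were not used here. The letters TATAAA, TTGCNNAA (C/EBP-like) and TTCNNNGAA (STAT-like), the NF-kB motif and the interferon-stimulated response element were searched on both strands, and no matches overlapped in the windows shown. In this order they occur in 13.6%, 10.8%, 8.29%, 4.50% and 0.171% of all 32817 promoter windows. Capitals mark the matches, and the strings run 5′ to 3′ on the strand of the gene.
C1ra, chr6:124512371-124512670, plus strand: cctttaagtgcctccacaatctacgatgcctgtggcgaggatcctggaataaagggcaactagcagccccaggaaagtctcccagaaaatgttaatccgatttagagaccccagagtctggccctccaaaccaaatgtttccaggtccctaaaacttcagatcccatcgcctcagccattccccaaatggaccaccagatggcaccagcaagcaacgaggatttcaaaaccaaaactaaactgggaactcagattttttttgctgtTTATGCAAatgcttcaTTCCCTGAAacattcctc
C1s1, chr6:124542310-124542609, minus strand: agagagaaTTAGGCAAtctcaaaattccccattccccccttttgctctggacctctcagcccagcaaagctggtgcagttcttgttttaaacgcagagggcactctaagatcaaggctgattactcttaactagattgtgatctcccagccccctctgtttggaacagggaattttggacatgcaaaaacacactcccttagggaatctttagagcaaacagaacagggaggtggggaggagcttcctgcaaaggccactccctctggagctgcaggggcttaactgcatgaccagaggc
In the *C1ra* window the reverse strand of TTGCNNAA and the forward TTCNNNGAA matched, both past the start site. The RefSeq start lies 216 bases from the GENCODE start of *C1ra*, so by GENCODE most of this window is inside the gene. In the *C1s1* window a reverse TTGCNNAA matched near its upstream end, and a second *C1s1* window, whose RefSeq start is 38 bases away, held 0 matches. *Cd55* had none of the 5. Such matches are a description of the letters and show no binding.

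*C4b* (chr17:34728380-34743882, minus strand) encodes C4, which C1s cleaves. At P1 it measured 76.5 and 78.5 CPM in WT and 203 and 199.8 CPM in cKO libraries. At P6 the values were 47.5 and 50.3 CPM in WT and 33.9 and 35.8 CPM in cKO, and at P8 169 and 158 CPM against 111 and 108 CPM. The cKO libraries were thus far above WT at P1 and below it at both later ages, without overlap. The log2 fold change was 1.38 at P1 (SE 0.055, edgeR adjusted p = 8.10e-07, 2.60-fold higher), -0.49 at P6 (adjusted p = 1.85e-04, 1.40-fold lower) and -0.58 at P8 (SE 0.054, adjusted p = 3.52e-05). The P8 value, 1.493-fold, fell just short of the fold cut-off. It passed the cut-off with DESeq2 size factors (-0.60), in DESeq2 (-0.60), with the P8 libraries fitted alone (-0.60), without P8 WT replicate 2 (-0.62) and without P8 cKO replicate 1 (-0.60). *C4a*, a close copy that can take reads from *C4b*, was not called at any age.

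*C2* (chr17:34862604-34898265, minus strand) encodes the other substrate of C1s. It held 21.6 and 22.3 CPM in WT and 28.8 and 29.4 CPM in cKO at P1, and 37.2 and 33.5 CPM against 45.9 and 48.7 CPM at P8. At P6 the libraries overlapped, with 9.36 and 12.8 CPM in WT and 10.5 and 8.90 CPM in cKO. The libraries labelled cKO were somewhat higher at P1 and P8, but none of the differences was called. Fitted log2 fold changes of *C2* were 0.41 at P1 (adjusted p = 0.124), -0.19 at P6 (adjusted p = 0.384) and 0.42 at P8 (adjusted p = 0.0442, 1.34-fold). Part of the *C2* exons also belongs to *Zbtb12* and to *Gm20547* in the annotation, so its counts could hold reads of these genes.

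*C3* (chr17:57203970-57228136, minus strand) encodes the component that all pathways cleave and was by far the most abundant of the 9 at P1. Its promoter window is shown for that reason, with matches in capitals as above.
C3, chr17:57228087-57228386, minus strand: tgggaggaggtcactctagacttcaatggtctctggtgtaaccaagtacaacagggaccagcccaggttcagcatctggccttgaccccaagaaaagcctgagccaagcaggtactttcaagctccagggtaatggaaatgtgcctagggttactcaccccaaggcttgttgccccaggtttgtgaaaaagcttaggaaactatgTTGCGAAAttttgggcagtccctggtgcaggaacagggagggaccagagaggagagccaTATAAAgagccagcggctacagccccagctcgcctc
TTGCNNAA lies 45 bases before the RefSeq start site and TATAAA begins 14 bases after it. At P1 *C3* measured 1428 and 1439 CPM in WT and 1190.2 and 1187 CPM in cKO libraries. At P6 it measured 109 and 119 CPM in WT and 56.4 and 76.5 CPM in cKO, and at P8 375 and 375 CPM in WT against 434 and 448 CPM in cKO. The cKO libraries were below WT at P1 and P6 and above it at P8, with no overlap at any age. The difference was called at P6 only, with a log2 fold change of -0.78 (SE 0.11, adjusted p = 7.67e-04, 1.72-fold lower). Without P6 cKO replicate 1 it was -0.58 (adjusted p = 1.37e-04), below the fold cut-off. It was -0.27 at P1 (adjusted p = 0.189) and 0.23 at P8 (adjusted p = 0.139, 95% interval -0.015 to 0.48).

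*Cfb* (chr17:34856374-34862518, minus strand) encodes factor B of the alternative pathway and lies 85 bases from *C2*. It measured 60.6 and 59.5 CPM in WT and 51.3 and 62.4 CPM in cKO at P1, with overlap. At P6 it was low in all libraries, with 3.38 and 1.81 CPM in WT and 1.77 and 1.66 CPM in cKO. At P8 it stood at 38.0 and 37.5 CPM in WT and at 12.3 and 13.3 CPM in cKO, well apart. Its log2 fold change was -0.079 at P1 (adjusted p = 0.893), -0.59 at P6 (adjusted p = 0.112) and -1.56 at P8 (SE 0.22, adjusted p = 4.30e-04, 2.94-fold lower). The P6 difference depended on which WT library was kept, at -0.98 (adjusted p = 0.00154, called) without P6 WT replicate 2 and at -0.077 (adjusted p = 0.807) without P6 WT replicate 1. Most of the *Cfb* exons, 2246 of 2825 bases, also belong to *Gm20547*. At P8, *C3* and *Cfb* parted, with *Cfb* per kilobase at 0.183 ± 0.0018 (SD, n = 2) of *C3* in WT and 0.0530 ± 0.0017 in cKO.

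The remaining regulators behaved differently from each other. *Cfi* (chr3:129835884-129875332, plus strand) encodes factor I and was near the limit of detection before P8. It had 6 and 8 counts in the WT and 26 and 26 in the cKO libraries at P1, and 20 and 9 in WT against 19 and 0 in cKO at P6. At P8 it had 253 and 346 counts (4.25 and 4.79 CPM) in WT and 103 and 101 (1.40 and 1.20 CPM) in cKO. The genotypes thus lay apart at P1 and P8, in opposite directions, and overlapped at P6. The fit gave a log2 fold change of 2.16 at P1 (SE 0.96, adjusted p = 0.235), -0.61 at P6 (adjusted p = 0.714) and -1.80 at P8 (SE 0.78, adjusted p = 0.112, 95% interval -3.57 to -0.024). The P6 cKO pair, at 19 and 0 counts, was the most unlike. Without P6 cKO replicate 1 or 2, the P1 difference (2.16, adjusted p = 0.0224 and 0.0220) and the P8 difference (-1.79, adjusted p = 0.00595 and 0.00577) were called, and the P8 difference was also called with the P8 libraries alone (-1.82, adjusted p = 0.00253). The P6 difference became -6.92 (adjusted p = 0.00636) without P6 cKO replicate 1, which leaves the library with 0 counts, and fitted values against that library alone depend on the prior count and bound nothing.

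*Cd55* (chr1:130439027-130462744, minus strand) encodes a membrane protein that protects cells from their own complement. It measured 15.7 and 16.5 CPM in WT and 12.5 and 15.3 CPM in cKO at P1, and 16.1 and 17.6 CPM against 16.0 and 17.6 CPM at P8. At P6 the WT libraries held 19.2 and 20.3 CPM and the cKO libraries 10.3 and 8.45 CPM. Only at P6 was it called, with a log2 fold change of -1.08 (SE 0.13, adjusted p = 2.89e-04, 2.11-fold lower in cKO). At P8 the difference was -0.0044 (adjusted p = 0.987), with a 95% interval of -0.30 to 0.29, and at P1 -0.21 (adjusted p = 0.413).

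**Figure D2:**
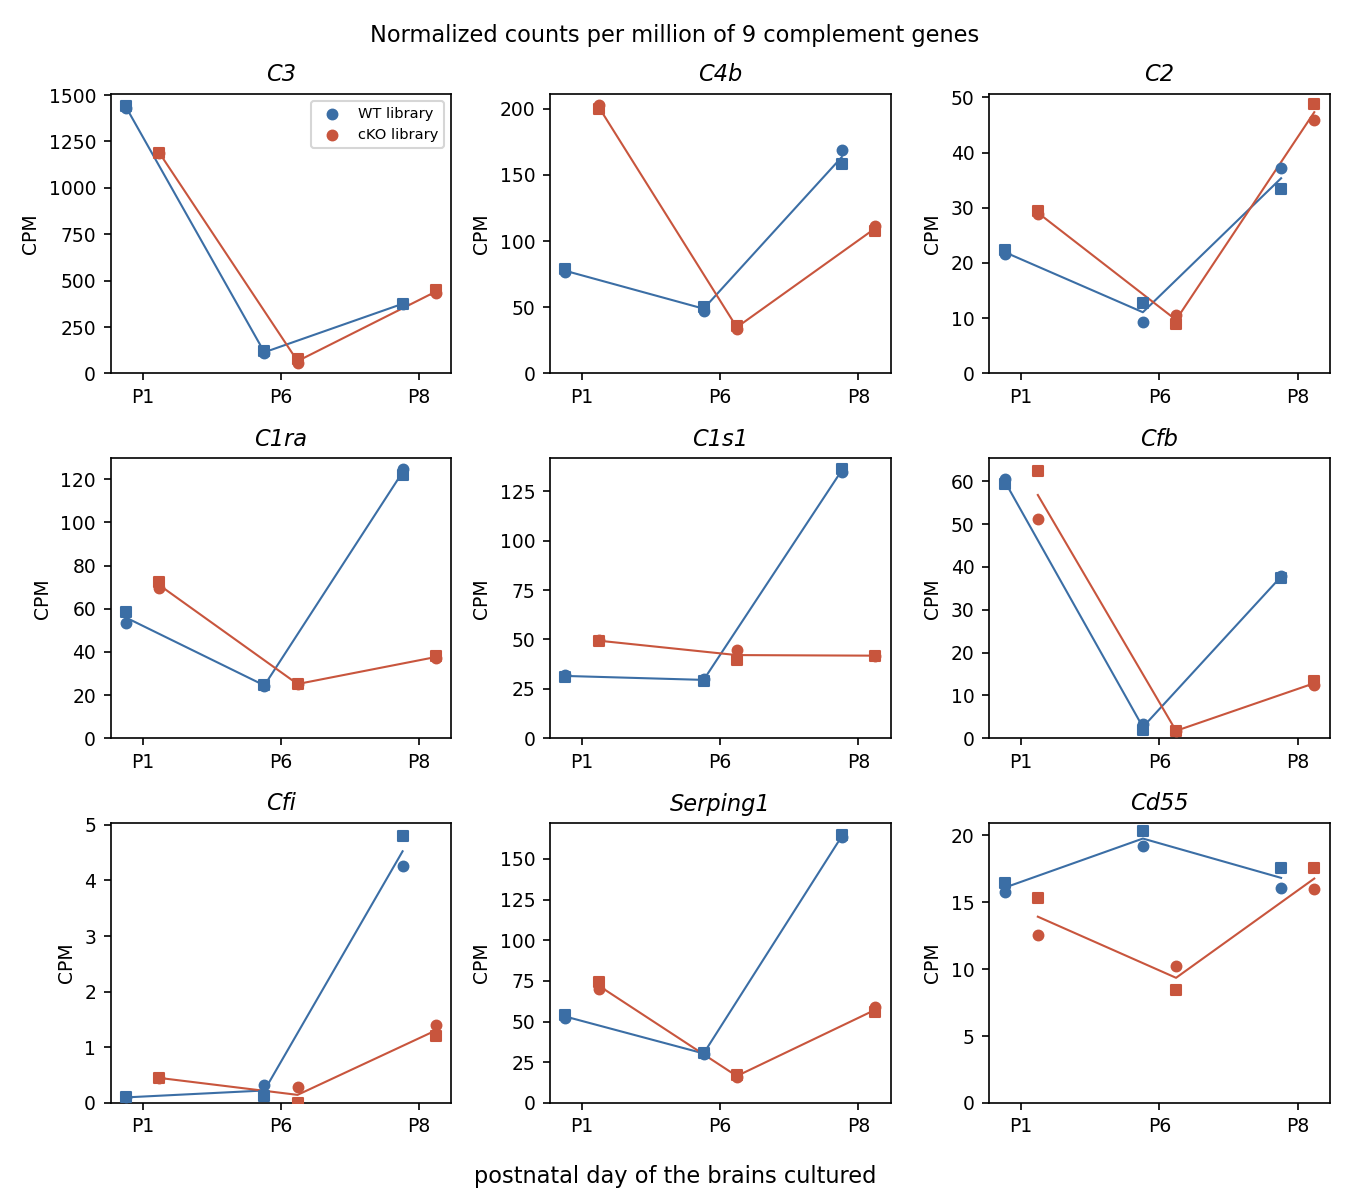
CPM after TMM normalization (y axis, each panel with its own scale from 0) of the 9 complement genes by postnatal day (x axis). Circles are replicate 1 and squares replicate 2, blue is WT and red cKO, and lines join the group means. *C3* falls from 1187 CPM or more at P1 to 119 CPM or less at P6, and *C1s1* in cKO stays between 39.5 and 49.8 CPM at all ages.

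Whether the genotype difference itself changed with age was tested with interaction terms, called at an adjusted p below 0.05. From P1 to P6 the difference became more negative for 4 of 9 genes, against 8.19% of all genes tested, and more positive for 0, against 7.12% (0 at an unadjusted p below 0.05, 0 by DESeq2). These were *C4b* (-1.87, SE 0.078, edgeR adjusted p = 4.05e-07), *Serping1* (-1.32, SE 0.089, adjusted p = 1.12e-05), *Cd55* (-0.87, SE 0.18, adjusted p = 0.0117) and *C1ra* (-0.31, SE 0.087, adjusted p = 0.0449). The *C1ra* term was lost in every fit that left out a library except that without P1 WT replicate 2, with adjusted p up to 0.135. The *C3* term (-0.51, adjusted p = 0.0592) was called without P6 cKO replicate 1 (-0.31, adjusted p = 0.0164) or 2 (-0.74, adjusted p = 1.79e-04). Called in 1 such fit each were *C2* (-0.60, adjusted p = 0.0830) without P6 WT replicate 1 (-0.81, adjusted p = 0.0115), *Cfb* (-0.51, adjusted p = 0.356) without P6 WT replicate 2 (-0.90, adjusted p = 0.0102) and *Cfi* (-2.76, adjusted p = 0.232) without P6 cKO replicate 1 (-9.07, adjusted p = 0.00271). With the other library of the same pair left out instead, these 3 terms were -0.36 (adjusted p = 0.196), 0.0021 (adjusted p = 1.00) and -1.78 (adjusted p = 0.149).

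From P6 to P8 the difference became more negative for 3 of 9, against 8.83%, and more positive for 2, against 12.6%. The C1 genes were those that went down, *C1s1* by -2.21 (SE 0.097, adjusted p = 8.08e-07), *C1ra* by -1.75 (SE 0.088, adjusted p = 1.81e-06) and *Serping1* by -0.64 (SE 0.089, adjusted p = 8.82e-04). *Cd55* (1.07, SE 0.18, adjusted p = 0.00284) and *C3* (1.01, SE 0.16, adjusted p = 0.00160) went the other way. Without P6 WT replicate 1, *C2* (0.61, adjusted p = 0.0590) was also called at 0.82 (adjusted p = 0.00761) and *Cfb* (-0.96, adjusted p = 0.0645) at -1.48 (adjusted p = 7.94e-04). Without P6 WT replicate 2 they were 0.38 and -0.57 and neither was called. Over the whole span from P1 to P8 it became more negative for 6 of 9, against 11.7%, and more positive for 1, against 14.0%. The 6 were *C1s1* (-2.35, SE 0.097), *C1ra* (-2.06, SE 0.088), *Serping1* (-1.96, SE 0.089), *C4b* (-1.96, SE 0.077), *Cfb* (-1.48, SE 0.30) and *Cfi* (-3.95, SE 1.24), with adjusted p of 2.82e-07, 3.35e-07, 4.85e-07, 2.22e-07, 0.00559 and 0.0445. The *Cfi* term was lost in each of the fits that left out a P1 or P8 library, with adjusted p between 0.0850 and 0.123. *C3* was the 1 that rose (0.50, SE 0.15, adjusted p = 0.0412), and it was lost in 9 of the fits that left out a library, with adjusted p between 0.0511 and 0.110.

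The levels of most of the 9 genes differed between ages in both genotypes. Libraries of different ages come from different cultures, so age cannot be told apart here from the preparation of the cultures. In WT, 6 of 9 fell from P1 to P6, against 10.9% of all genes, and 0 rose, against 12.2% (1 at an unadjusted p below 0.05, 0 by DESeq2). The largest falls were those of *Cfb*, with a log2 fold change of -4.54 (SE 0.25, 23.2-fold, edgeR adjusted p = 6.97e-07), and *C3*, with -3.65 (SE 0.12, 12.6-fold, adjusted p = 2.63e-08). *C1ra* fell by 1.19, *C2* by 0.99, *Serping1* by 0.80 and *C4b* by 0.66 on the log2 scale, with edgeR adjusted p between 5.34e-07 and 4.91e-04. *C1s1* (-0.095, adjusted p = 0.313), *Cfi* (1.15, adjusted p = 0.404) and *Cd55* (0.30, adjusted p = 0.101) were not called. Over the same step the WT fibroblast marker sum went up, from 490 to 499 CPM at P1 to 6776 to 6838 CPM at P6.

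From P6 to P8 in WT, 8 of 9 rose, against 8.66% of all genes, and 0 fell, against 10.3% (0 at an unadjusted p below 0.05, 0 by DESeq2). *Cfi* (4.34), *Cfb* (3.87), *Serping1* (2.43), *C1ra* (2.33) and *C1s1* (2.20) rose most on the log2 scale, and *C4b* (1.74), *C3* (1.72) and *C2* (1.67) somewhat less, with edgeR adjusted p between 1.99e-08 and 0.00514. *Cd55* was the exception (-0.23, adjusted p = 0.201). The WT fibroblast sum again went up over this step, to 26278 to 26380 CPM, here in the same direction as the 8 genes.

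In cKO, 6 of 9 fell from P1 to P6, against 10.4%, and 0 rose, against 11.0% (0 at an unadjusted p below 0.05, 0 by DESeq2). *Cfb* (-5.05, 33.1-fold) and *C3* (-4.16, 17.9-fold) again led, followed by *C4b* (-2.53), *Serping1* (-2.13), *C2* (-1.59) and *C1ra* (2.83-fold), with edgeR adjusted p between 6.11e-09 and 2.92e-05. *Cd55* (-0.57, adjusted p = 0.00712) missed the fold cut-off and passed it without P1 cKO replicate 1 (-0.72) or P6 cKO replicate 1 (-0.72), and *Cfi* (-1.62, adjusted p = 0.207) was called without P6 cKO replicate 1 (-7.93, adjusted p = 0.00144). *C1s1* stood at -0.23 (adjusted p = 0.0247). From P6 to P8, 7 of 9 rose in cKO, against 11.9%, and 0 fell, against 12.2% (0 at an unadjusted p below 0.05, 0 by DESeq2). *Cfi* (3.15), *Cfb* (2.90), *C3* (2.73), *C2* (2.29), *Serping1* (1.79), *C4b* (1.65) and *Cd55* (0.84) were called, with edgeR adjusted p between 4.44e-08 and 0.0217. The *Cfi* call was lost without P8 cKO replicate 1 (adjusted p = 0.0688) or 2 (adjusted p = 0.0532), and its value was 2.16 without P6 cKO replicate 2 and 9.46 without P6 cKO replicate 1. *C1s1* was not called (-0.010, adjusted p = 0.931, 95% interval -0.16 to 0.14), where in WT it rose by 2.20 on the log2 scale. *C1ra* reached 1.4987-fold (0.58, adjusted p = 6.10e-05) and passed the cut-off in several fits that left out a library, at 0.59 to 0.61.

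Per kilobase of exon, *C3* was the highest of the 9 genes in 5 of the 6 groups. It stood at 279 CPM per kilobase in P1 WT, where it ranked 97 among all genes with a known length, 231 in P1 cKO, 22.2 in P6 WT, 72.9 in P8 WT and 85.7 in P8 cKO. In P6 cKO *C1s1* (13.5) and *C3* (12.9) overlapped at the top. *Serping1* came second in P1 WT (22.8), P6 WT (13.1), P8 WT (70.5) and P8 cKO (24.6), and *C4b* second in P1 cKO (35.4). *Cfi* was last in all 6 groups, between 0.0448 in P1 WT and 2.04 in P8 WT. The only other neighbours that overlapped were *C1ra* (12.6) and *C2* (12.2) in P8 cKO. In P8 WT, then, *C3* and *Serping1* were nearly level, while in P8 cKO *C3* stood well clear of the rest. The ratio of *C3* to *C4b* per kilobase was 20.5 ± 0.27 (SD, n = 2) in P1 WT and 6.54 ± 0.060 in P1 cKO. It was 2.58 ± 0.050 and 2.10 ± 0.37 at P6, and 2.54 ± 0.12 and 4.46 ± 0.21 at P8.

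The rest of the cascade was described from a list of 45 further complement genes, of which 31 identifiers were in the table and 30 were tested. At P1, 2 of these were called higher (*Hc* and *Susd4*) and 1 lower (*Cd59b*) in cKO, against 4.01% and 0.892% of all genes, and 8 passed an unadjusted p below 0.05 with the same fold cut-off, which 8.86% of all genes did. At P6, 3 were higher and 4 lower of 30, against 7.16% and 6.38% of all genes, and at P8, 13 were higher and 8 lower, against 11.2% and 8.37%. The classical pathway split at P8, where the 3 chains of C1q, the sensor that C1r and C1s are bound to, were higher in cKO. *C1qa* was higher with a log2 fold change of 1.26 (SE 0.052, edgeR adjusted p = 1.67e-07), *C1qc* with 1.25 and *C1qb* with 1.10. *C1rb* and *C1s2*, the copies of the protease genes, were lower in cKO at P8 along with *C1ra* and *C1s1*. *C1ra* plus *C1s1* per kilobase thus stood at 0.0652 ± 0.0029 (SD, n = 2) of the C1q chains in P8 WT and at 0.00867 ± 0.00010 in P8 cKO. At P1 this ratio was 0.0132 ± 0.00030 in WT and 0.0207 ± 3.43e-05 in cKO, and at P6 0.0129 ± 0.00081 and 0.0145 ± 0.00010. The initiators of the lectin pathway *Masp1* and *Fcna* were also higher in P8 cKO.

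The soluble and receptor genes of the list showed a similar split. *Cfp*, which encodes properdin, the stabilizer of the alternative C3-cleaving enzyme, was 2.11 higher on the log2 scale in cKO at P8 (edgeR adjusted p = 1.92e-08), where *Cfb* was lower. *C4bp*, the C4b-binding regulator, was lower at P6 and P8, *Csmd1* and *Cd46* lower at P8, *Vtn* lower at P6 and *Csmd2* higher at P6. *Clu*, which encodes clusterin, an inhibitor of the lytic complex, was higher at P6 (1.20, adjusted p = 1.12e-05) and P8 (1.24, adjusted p = 5.52e-06). Of the terminal components, *Hc* (C5) and *C8g* were lower at P8. Receptors for the cleaved fragments were higher in P8 cKO, *C3ar1* by 1.30, *C5ar1* by 1.71 and *Itgb2*, a chain of complement receptor 3, by 1.37 (edgeR adjusted p between 1.60e-08 and 7.02e-08), as were *Itgax* and *Vsig4*. *Itgam*, the other chain, is split over 2 overlapping identifiers whose values went opposite ways at P6 (1.63 and -13.71) and is uncertain. Both identifiers are among the 30 tested, so this gene can enter the counts of calls in both directions. C1q and the receptors are microglial genes. The microglia marker sum was 1.43-fold higher in P8 cKO, with 7 of the 11 markers called higher. Among the others *Fcrls* was nearly level, with means of 974 CPM in WT and 943 CPM in cKO. *Tmem119* was lower in cKO, at 22.9 against 59.8 CPM. The part of microglia in these differences was not tested.

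**Figure D3:**
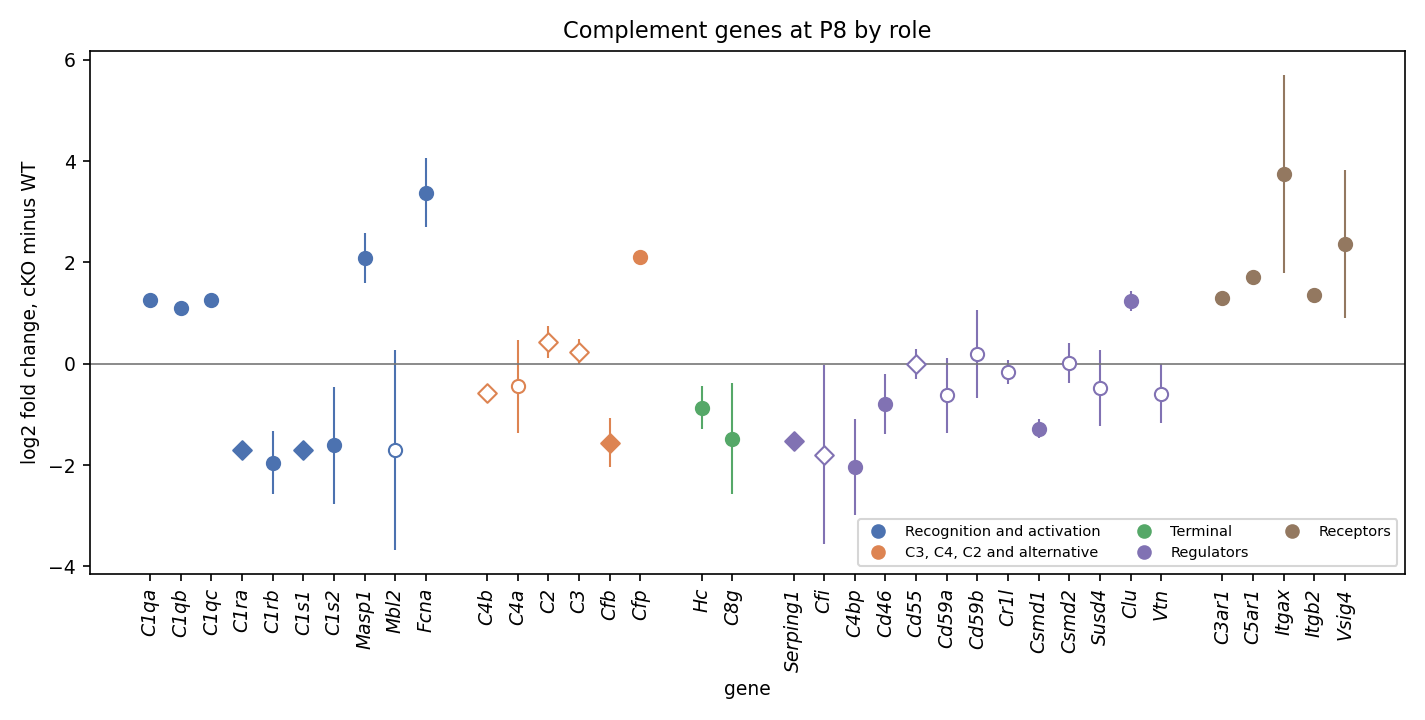
Log2 fold change (cKO minus WT, y axis) at P8 of the complement genes tested, by role along the x axis, with 95% intervals, and without *Itgam* and a gene not reported here. Diamonds are the 9 genes of the report and circles the others, and filled symbols were called. *C1qa*, *C1qb* and *C1qc* lie between 1.10 and 1.26, and *C1ra* and *C1s1* at -1.71 and -1.70.

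Cytokines, receptors and transcription factors that are known to raise complement genes were counted over a list of 25, of which 24 were tested. The list of 25 also holds the gene of an inhibitor of NF-kB. At P1, 1 was called higher in cKO, against 4.01% of all genes, *Il6* (1.23, edgeR adjusted p = 0.00220). At P6, 3 were higher and 4 lower, against 7.16% and 6.38%, the most abundant being *Il6st*, the shared receptor chain for IL-6 family cytokines (-0.93, adjusted p = 1.43e-06), *Osmr*, the oncostatin M receptor (-1.31, adjusted p = 8.68e-07), and the transcription factor *Irf1* (-0.72, adjusted p = 0.0206). At P8, 8 were higher and 2 lower, against 11.2% and 8.37%, with *Il6st* lower (-0.77, adjusted p = 2.93e-06) and the transcription factors *Cebpd* (0.77, adjusted p = 2.28e-04) and *Irf7* (1.55, adjusted p = 0.0258) higher. The median log2 fold change of the list was 0.36 at P8, where that of the 9 complement genes was -1.52. No test linked these genes to the complement genes.

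Over the 12 libraries the 9 genes did not follow 1 pattern. Pearson's r of log2 CPM was 0.94 between *C3* and *Cfb*, 0.93 between *C1ra* and *Serping1* and 0.89 between *C1s1* and *Cfi*, but 0.071 between *C3* and *C1s1*, and *Cd55* had r of at most 0.48 with each of the others. Among 15145 genes with a mean of at least 1 CPM, those most alike were *Batf* (r = 0.99) and *Slfn4* (0.99) for *C3*, *Ifitm3* (0.98) and *Gda* (0.98) for *C2*, and *Sema4b* (0.99) and *Hgd* (0.98) for *Cfb*. For *C1ra* they were *Alpl* (0.96) and *Rbm12b2* (0.95), for *C1s1* *Shank1* (0.95) and *Adpgk* (0.95), and for *Serping1* *Hmgb1-ps9* (0.97) and *Mtmr4* (0.96). For *C4b* they were *Sap130* (0.95) and *Gm10800* (0.93), for *Cfi* *Gm9104* (0.98) and *Aldh18a1* (0.97), and for *Cd55* *Mta2* (0.97) and *Olfml2b* (0.94). The points come from 6 groups of 2, so such values mostly describe how the group means run together, and they are given as descriptions.

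The levels of the C1 proteases and inhibitor were set beside the marker sums library by library. *C1ra*, *C1s1* and *Serping1* together were lowest at P6 in both genotypes, while the WT fibroblast sum was lowest at P1 and higher at each later age. In cKO each of the 3 genes had a lower mean at P8 than at P1. These means were 37.6 against 71.0 CPM for *C1ra*, 41.8 against 49.4 CPM for *C1s1* and 57.2 against 72.1 CPM for *Serping1*. The cKO fibroblast sum was higher at P8 (8165 to 8415 CPM) than at P1 (2527 to 2556 CPM). At P8 both the 3 genes and the fibroblast sum were highest in WT. The microglia sum went the opposite way at P8, and the astrocyte sum was lower in P8 cKO along with the 3 genes, though the astrocyte marker *Aldh1l1* was higher.

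**Figure D4:**
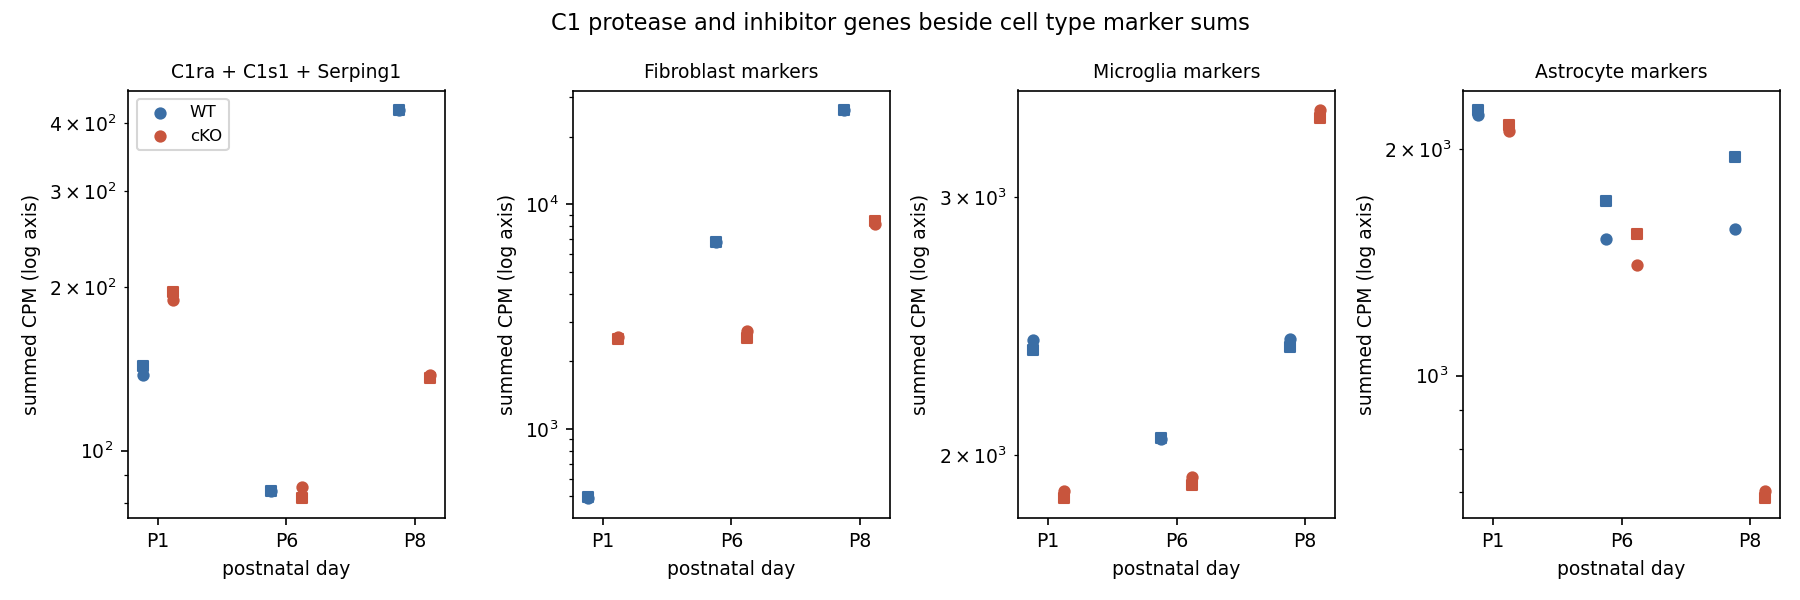
Summed CPM (y axes, logarithmic, each panel with its own scale) of *C1ra*, *C1s1* and *Serping1* and of the fibroblast, microglia and astrocyte markers by postnatal day (x axis). Circles are replicate 1 and squares replicate 2, blue is WT and red cKO. The fibroblast sum in WT goes from 490 to 499 CPM at P1 to 26278 to 26380 CPM at P8, while the 3 complement genes dip at P6.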

How the data were processed

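RNA-seq of primary astrocytes was examined in 12 libraries, 6 groups of 2 by genotype and age. The authors deposited counts, that is, unnormalized whole numbers for 18903 genes. Per the methods and the submitters' processing notes, mRNA was captured, and reads were mapped with Hisat2 to GRCm38 (mm10). The counting program and its annotation and strand setting were not found in the sources at hand, and reads of overlapping or copied genes could have gone to either. Each library column carried its sample's title.

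Counts were normalized by TMM and tested in R 4.3.3 with edgeR 4.0.16 (quasi-likelihood test, filterByExpr, 1 mean per group over all libraries), with p adjusted by Benjamini-Hochberg over 17938 genes. Contrasts were cKO minus WT at each age, age steps within a genotype and interactions. DESeq2 1.42.0 was an alternative. CPM used the TMM-scaled totals, 0.5 was added for correlations of log2 CPM, and exonic lengths came from GENCODE vM21, which held 18861 of the identifiers. Totals of 54413504 to 89183250 put 3 counts at no more than 0.0527 CPM. Replicates differed by more than counting noise (chi-square over degrees of freedom, 30.5 to 47.1), with a biological coefficient of variation of 0.178. The fits were tested on simulated data.

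The genes named were the 9 complement genes, other listed complement genes called at any age (at most 10 with values, by mean CPM), the 3 called inducers of highest mean CPM per age, the 2 most alike genes for each of the 9, and *Zmynd8*. A listed complement gene that the rule covers is not reported here, though the counts of its list hold it. Members and lists were chosen with earlier results of these data known. Alternatives were DESeq2 size factors, DESeq2, no filter, a replicate block, a 2-fold cut-off, unadjusted p, the compared ages alone, paralogue counts summed, and each library left out. Where 1 library of a group remained, its spread was taken from the other groups.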

Additional observations from a re-analysis of the deposited data

Results flagged for a closer look

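Genotype differences (cKO minus WT, log2) that changed between ages by the interaction test are listed here for a closer look, each as the later minus the earlier difference. From P1 to P6 the change was -1.87 for *C4b*, -1.32 for *Serping1*, -0.87 for *Cd55* and -0.31 for *C1ra*. From P6 to P8 it was -2.21 for *C1s1*, -1.75 for *C1ra*, -0.64 for *Serping1*, 1.01 for *C3* and 1.07 for *Cd55*. From P1 to P8 it was -3.95 for *Cfi*, -2.35 for *C1s1*, -2.06 for *C1ra*, -1.96 for *Serping1*, -1.96 for *C4b*, -1.48 for *Cfb* and 0.50 for *C3*. The values for *C4b*, *C1ra*, *C1s1* and *Serping1* over the whole span go from higher at P1 to lower at P8 in cKO. The fibroblast and endothelial marker sums did the same, from 5.14- and 1.98-fold higher to 3.18- and 4.03-fold lower. The endothelial marker *Flt1* was an exception, higher in cKO at P8. The part of these other cells in the changes listed was not tested. The *C1ra* change from P1 to P6 and those of *C3* and *Cfi* from P1 to P8 had edgeR adjusted p of 0.0449, 0.0412 and 0.0445, close to the threshold.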

How the results depend on the processing

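Of 1620 values of the 9 genes under the alternatives, not counting the 2-fold cut-off and the unadjusted p, 1533 kept their direction and call, 36 gained a call, 34 lost one and 17 changed sign, all of the last not called at first. With a 2-fold cut-off, 1 gene was higher at P1, 1 lower at P6 and 3 differed between P1 and P6 in WT. The number of other complement genes called at P1 was 6 in DESeq2, 1 with the P1 libraries alone and 8 at an unadjusted p, against 3. Leaving out each library in turn gave 2 to 3 of the 9 genes higher and 0 lower at P1, 0 to 1 higher and 3 to 4 lower at P6, and 0 higher and 4 to 5 lower at P8. It gave 3 to 5, 5 to 7 and 5 to 7 interactions from P1 to P6, P6 to P8 and P1 to P8, and 6 and 8 age steps in WT (in each fit) and 6 to 8 and 6 to 8 in cKO. Other complement genes called came to 2 to 4, 6 to 8 and 16 to 22 at P1, P6 and P8. Signs changed between the fits that left out a library, with ranges for cKO minus WT of -0.23 to 0.054 in *Cfb* at P1, -0.40 to 0.045 in *C2* at P6, -6.92 to 0.38 in *Cfi* at P6 (positive without P6 WT replicate 1 or P6 cKO replicate 2, at 0.14 and 0.38) and -0.074 to 0.063 in *Cd55* at P8. Interactions ranged from -0.90 to 0.0021 in *Cfb* from P1 to P6, -2.17 to 5.12 in *Cfi* from P6 to P8 and -0.060 to 0.093 in *C2* from P1 to P8, and *C1s1* in cKO from P6 to P8 ranged from -0.097 to 0.084. The *C2* interaction was -0.0039 with DESeq2 size factors, -0.0036 in DESeq2 and -0.0059 with those ages alone. With paralogues summed (*Cd55* without *Cd55b*, which was not analysed here), *C1ra* at P6 was -0.028 and *C1s1* in cKO from P6 to P8 0.0092. Same-numbered libraries did not deviate together (correlations of -0.044 to 0.091). This gave no sign of pairing by number, but it cannot show how the libraries were prepared. With the replicate block, the P1 to P6 interaction of *C3* was called (-0.51, edgeR adjusted p = 0.0466), that of *C1ra* was lost (-0.31, adjusted p = 0.0558), and no other call changed. The cause of these changes was not tested. *Cfi* below P8 had at most 26 counts in a library, which limits its differences there.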
